A study of Caenorhabditis elegans with 32 samples.

Results

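The genes followed here are 10 genes of *C. elegans* fat metabolism, chosen by name for what their products do. They comprise *atgl-1*, *hosl-1* and *lid-1* (breakdown of stored fat), *plin-1* (lipid droplet coat), *dgat-2* and *lpin-1* (assembly of triacylglycerol), *pod-2* and *fasn-1* (synthesis of fatty acids), and *sbp-1* and *mdt-15* (transcriptional control of these steps). All 10 were found among the 46589 genes of the count table, and all 10 passed the filter on low counts in every comparison.

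RNA was sequenced from whole, synchronized animals at the L4 or young adult stage by the labels, fed OP50 bacteria at 20 °C, with 4 libraries in each of 8 groups. The 4 genotypes were WT (N2 Bristol), *pgph-2 o/e* (an integrated transgene that drives *pgph-2* from its own promoter, with a *myo-2p::mcherry* marker expressed in the pharynx), *hlh-30 (tm1978)* and their combination *pgph-2 o/e; hlh-30 (tm1978)*, called the double mutant. Each genotype was grown on nematode growth medium (NGM) and on NGM with 2% glucose. Both *pgph-2 o/e* genotypes carry the marker and WT does not, so an effect of the marker or of the insertion cannot be told apart from one of *pgph-2*. Levels are given in CPM, the counts of a gene scaled to a common library size with TMM factors, and a gene is called where its adjusted *P* over all genes tested was at most 0.05 in edgeR's quasi-likelihood test on the groups compared, so that "rose" and "fell" are used for called genes. The labels do not say whether the 4 libraries of a group came from separate cultures, so these *P* values measure the spread between libraries.

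Animals of this species store fat as triacylglycerol in lipid droplets, mostly in the intestine and the hypodermis. Fatty acids are built by acetyl-CoA carboxylase and fatty acid synthase, joined to a glycerol backbone step by step, and released again by lipases at the droplet surface. The backbone is glycerol-3-phosphate, the same molecule that PGPH-2, a glycerol-3-phosphate phosphatase, hydrolyzes to glycerol. HLH-30 is the worm homolog of TFEB, a transcription factor of lysosome and autophagy genes that is active in fasting.

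Library totals ranged from 16750042 to 29794842 counts, with a median of 19774959.5, and each member had at least 276 counts in every library. The labels were checked on the manipulated genes: WT had a mean *pgph-2* level of 37.8 CPM on NGM and 67.8 CPM on glucose, against 69.4 and 123 CPM in *pgph-2 o/e*. Means were 41.6 and 35.998 CPM in *hlh-30*, against 126 and 83.6 CPM in the double mutant. The 2 transgene genotypes thus differed from each other in *pgph-2* as well, the double mutant being higher on NGM and lower on glucose with no overlap of the libraries. The *hlh-30* transcript was still counted in the *tm1978* groups, with means on NGM of 54.1 CPM (*hlh-30*) and 48.4 CPM (double mutant), against 99.1 CPM in WT. Intestinal markers were detected in every library, at a summed 7267 to 14854 CPM over 10 genes. The summed level of 36 sperm genes, 34 of which had counts in every library, differed widely between groups: 1225 to 2160 CPM in WT on NGM, 1604 to 3404 CPM in WT on glucose, 2513 to 4204 CPM in *pgph-2 o/e* on NGM and 214 to 596 CPM in *pgph-2 o/e* on glucose. In *hlh-30* it was 277 to 950 CPM on NGM and 76.3 to 702 CPM on glucose, and in the double mutant 490.4 to 946 CPM and 728 to 1190 CPM. The summed level of 15 oocyte genes was 762 to 1282 CPM in *pgph-2 o/e* on NGM and at most 921 CPM in any other group, and the 7 hypodermal markers summed on NGM to 1262 to 2008 CPM in *pgph-2 o/e* and WT and to 1509 to 1705 CPM in WT on glucose, against 466 to 1189 CPM in the other 5 groups. Apart from fits with the sperm genes as a term, given beside the results, the part of these markers in the results was not tested. As bulk samples of whole animals, these libraries cannot tell a change in the share of a tissue from a change in RNA per cell.

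Set on one scale by length, the genes differed in level by about an order of magnitude. Mean FPKM (fragments per kilobase of gene, scaled to library size) over the 32 libraries was highest for *pod-2* at 130.5 followed in order by *lpin-1* (91.4), *plin-1* (88.1), *fasn-1* (77.8), *mdt-15* (58.5), *dgat-2* (49.7), *atgl-1* (19.9), *lid-1* (15.8), *sbp-1* (13.5) and *hosl-1* (10.4). Neighbours in this order overlapped in their range over the 32 libraries. The genes with the widest spread between groups were *atgl-1*, *dgat-2* and *sbp-1*, whose 8 group means had an SD of 0.47, 0.46 and 0.32 on the log2 CPM scale, where *hosl-1* had an SD of 0.13. The plot of CPM by library shows each gene in all groups.

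**Figure D1:**
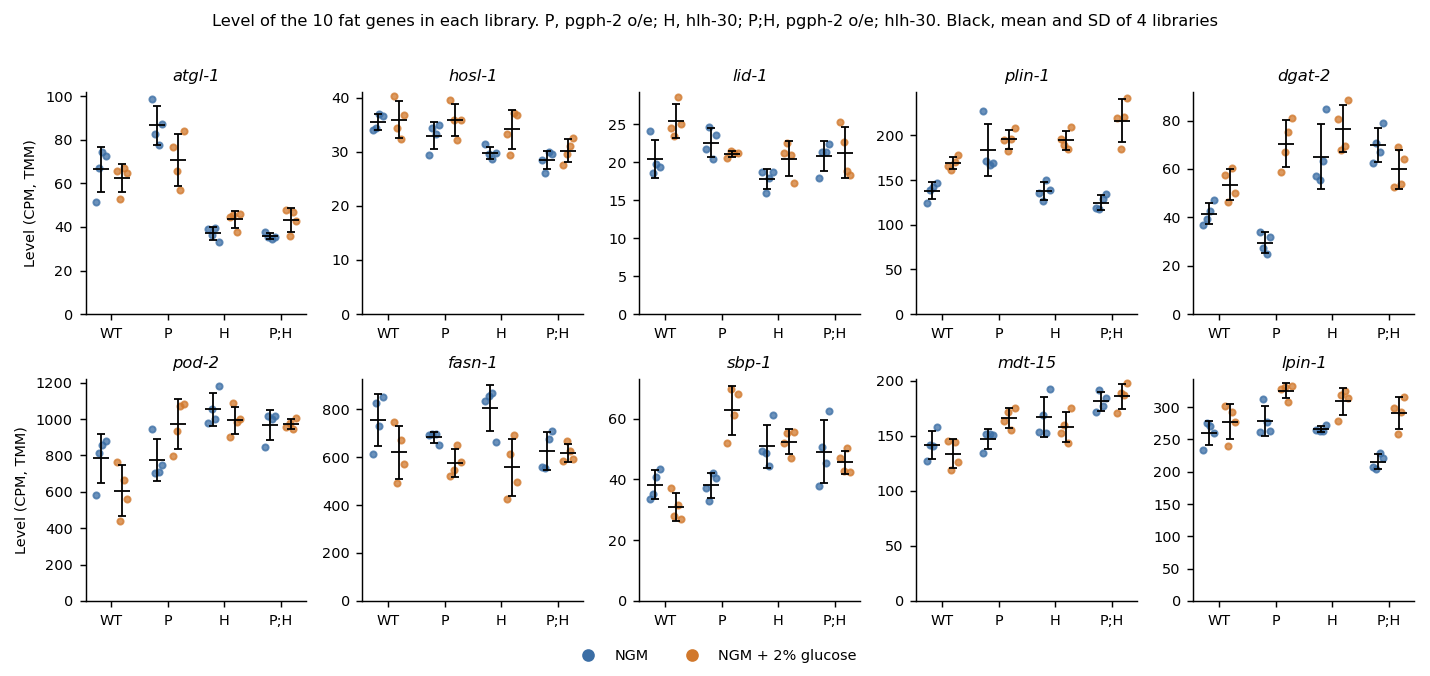
Level in CPM (y axis, from 0) of each of the 10 genes in every library, by genotype (x axis: WT; P, *pgph-2 o/e*; H, *hlh-30*; P;H, double mutant) and medium (blue, NGM; orange, NGM with 2% glucose), with the mean and SD of 4 libraries in black. For *atgl-1* the 16 libraries of H and P;H lie between 33.1 and 47.8 CPM, below all 16 libraries of WT and P, and for *dgat-2* the 4 libraries of P on NGM lie at 25.0 to 34.1 CPM, below all others.

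The lipase gene *atgl-1* was lower in every library without intact *hlh-30* than in any library with it. *atgl-1* encodes the worm adipose triglyceride lipase, which takes the first fatty acid from stored triacylglycerol, and the gene (C05D11.7) lies on chromosome III, 6415779 to 6421712. On NGM it had 51.4, 67.3, 74.4 and 72.7 CPM in the 4 WT libraries and 98.6, 82.8, 77.8 and 87.3 CPM with the transgene. The libraries of *hlh-30* on NGM had 39.1, 36.2, 39.8 and 33.1 CPM, and the double mutant 37.5, 35.4, 34.3 and 35.5 CPM. These 2 sets of groups did not overlap. The summed body wall muscle markers split the same groups without overlap, lower in *hlh-30* and the double mutant. The part of this in the level of *atgl-1* was not tested.

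In the edgeR fit, *atgl-1* fell by 1.27 on the log2 scale in the double mutant relative to *pgph-2 o/e* on NGM (SE 0.10, adjusted *P* = 2.33e-06), and by 0.84 in *hlh-30* relative to WT (SE 0.11, adjusted *P* = 0.00218). On glucose the levels were 65.6, 52.7, 67.0 and 64.6 CPM for WT, 76.5, 65.5, 57.2 and 84.0 CPM for *pgph-2 o/e*, 44.7, 45.5, 37.7 and 46.1 CPM in *hlh-30* and 47.8, 35.9, 46.9 and 42.6 CPM in the double mutant. Here *atgl-1* fell by 0.74 in the double mutant relative to *pgph-2 o/e* (SE 0.13, adjusted *P* = 0.00425) and by 0.53 in *hlh-30* relative to WT (SE 0.09, adjusted *P* = 0.00347). With a sperm term in a fit of all 32 libraries, the 2 changes on NGM were -1.37 and -0.90 and that of the double mutant on glucose -0.65, all called, while the change of *hlh-30* on glucose was -0.69 with an adjusted *P* of 0.115. All 4 calls were kept in each of the 8 fits that left out 1 library.

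The higher *atgl-1* level of *pgph-2 o/e* relative to WT on NGM, with no overlap between the 4 and 4 libraries, did not pass the test (log2 fold change 0.38, SE 0.13, adjusted *P* = 0.109). It passed when all 32 libraries were fitted together (0.38, adjusted *P* = 0.0248). Without *hlh-30*, the transgene came with a log2 difference of -0.06 (SE 0.07, adjusted *P* = 0.649) on NGM and -0.04 (SE 0.11, adjusted *P* = 0.861) on glucose. The difference between the transgene's effects with and without *hlh-30* was -0.41 (SE 0.15, adjusted *P* = 0.138) on NGM and -0.17 (SE 0.17, adjusted *P* = 0.445) on glucose, so a dependence of the transgene's effect on *hlh-30* was not shown for *atgl-1*.

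Neither of the other lipolysis genes followed this pattern across all groups. *hosl-1* (C46C11.1, chromosome X, 4637335 to 4643625) encodes the homolog of hormone-sensitive lipase, which acts on diacylglycerol, and its 32 libraries spanned 26.1 to 40.3 CPM. It fell by 0.24 in *hlh-30* relative to WT on NGM (SE 0.07, adjusted *P* = 0.0407), a call that was kept in 0 of the 8 fits without 1 library (adjusted *P* from 0.0625 to 0.0899) and was lost with the sperm term (-0.27, adjusted *P* = 0.0835). *lid-1* (C25A1.12, chromosome I, 10191301 to 10192894) encodes the homolog of CGI-58, a protein that activates ATGL, and ranged from 15.9 to 28.6 CPM. On glucose the WT libraries had 24.5, 23.4, 28.6 and 25.0 CPM, the *pgph-2 o/e* libraries 20.5, 21.4, 21.2 and 21.1 CPM and the *hlh-30* libraries 21.1, 22.5, 20.9 and 17.3 CPM, so WT lay above both. *lid-1* fell by 0.27 in *pgph-2 o/e* (SE 0.08, adjusted *P* = 0.0239) and by 0.31 in *hlh-30* (SE 0.10, adjusted *P* = 0.0329). The first call was kept in the 3 fits without *pgph-2 o/e* replicate 3 or WT replicate 1 or 2 (adjusted *P* up to 0.0686 in the others), the second in the 4 fits without *hlh-30* replicate 2 or 3 or WT replicate 1 or 2 (up to 0.0873). The sperm term gave -0.23 (adjusted *P* = 0.474) and -0.26 (adjusted *P* = 0.609).

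The droplet coat gene *plin-1* was higher on glucose than on NGM in WT, *hlh-30* and the double mutant. *plin-1* (W01A8.1, chromosome I, 7057170 to 7059349) encodes perilipin, which covers lipid droplets and governs the access of lipases to them. On NGM it had 125, 139, 142.2 and 147 CPM in WT, 136, 126, 150.3 and 138 CPM in *hlh-30* and 118, 117, 129 and 134 CPM in the double mutant. On glucose the same genotypes had 166, 161, 169.8 and 177 CPM, 196, 189, 185 and 209 CPM, and 219, 184, 220.2 and 242 CPM. Within each of these genotypes the 2 media did not overlap. The rise was 0.80 in the double mutant (SE 0.08, adjusted *P* = 0.000129), 0.52 in *hlh-30* (SE 0.07, adjusted *P* = 0.00245) and 0.30 in WT (SE 0.07, adjusted *P* = 0.0473), the last kept only without WT replicate 1 on NGM among the 8 fits that left out 1 library (adjusted *P* up to 0.157). Whether the rises differ between these genotypes was not tested.

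In *pgph-2 o/e*, *plin-1* had 227, 171, 167 and 169 CPM on NGM and 194, 183, 196 and 208 CPM on glucose, overlapping ranges with a log2 difference of 0.10 (SE 0.12, adjusted *P* = 0.55). This response differed from that of WT by -0.21 (SE 0.14, adjusted *P* = 0.249), so a change of the glucose response with the transgene was not shown. On NGM the 4 *pgph-2 o/e* libraries lay above the 4 WT libraries, with a log2 fold change of 0.40 (SE 0.12) and an adjusted *P* of 0.0747, which was 0.0458 without *pgph-2 o/e* replicate 1, the library at 227 CPM. The difference was called with DESeq2 (adjusted *P* = 0.0432) and in the fits of 32 libraries without (0.00182) and with the sperm term (0.0045), at log2 values of 0.40 to 0.41. In the double mutant on NGM *plin-1* fell by 0.55 relative to *pgph-2 o/e* (SE 0.12, adjusted *P* = 0.00274), a call kept in all alternative fits. The effect of the transgene on *plin-1* on NGM differed with *hlh-30*, by -0.53 (SE 0.14, adjusted *P* = 0.0426), a call kept in 7 of 16 fits that left out 1 library (adjusted *P* up to 0.0885). On glucose *plin-1* rose by 0.21 in *pgph-2 o/e* (SE 0.06, adjusted *P* = 0.02) and by 0.20 in *hlh-30* (SE 0.06, adjusted *P* = 0.0186) relative to WT. The last was not called without WT replicate 2 on glucose (0.17, adjusted *P* = 0.0785) or with DESeq2 (0.18, adjusted *P* = 0.062), and the first not without a filter on low counts. Neither passed in the fit of 32 libraries (adjusted *P* of 0.0506 and 0.0526) or with the sperm term (0.431 and 0.649), although the log2 values there were 0.20 to 0.21.

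*dgat-2* was lowest in *pgph-2 o/e* on NGM and rose there on glucose. It encodes diacylglycerol acyltransferase 2, which adds the last fatty acid of triacylglycerol, and the gene (F59A1.10) lies on chromosome V, 17660304 to 17661811. On NGM the *pgph-2 o/e* libraries had 34.1, 27.1, 25.0 and 32.02 CPM, the WT libraries 36.9, 39.2, 42.7 and 47.2 CPM, the *hlh-30* libraries 57.3, 55.5, 63.2 and 84.6 CPM and the double mutant 62.4, 70.9, 67.0 and 79.1 CPM. The 3 levels of *pgph-2 o/e*, WT and the *hlh-30* genotypes thus followed each other without overlap. On glucose the libraries had 58.7, 67.0, 75.3 and 80.9 CPM in *pgph-2 o/e*, 57.3, 46.4, 60.2 and 50.1 CPM in WT, 80.6, 67.9, 69.4 and 88.5 CPM in *hlh-30* and 52.3, 69.1, 53.6 and 64.2 CPM in the double mutant.

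The rise of *dgat-2* on glucose in *pgph-2 o/e* was 1.26 (SE 0.13, 2.39-fold, adjusted *P* = 4.34e-05), whereas the values in WT (0.37, adjusted *P* = 0.0757), *hlh-30* (0.26, adjusted *P* = 0.252) and the double mutant (-0.23, adjusted *P* = 0.176) did not pass. The test of the difference between *pgph-2 o/e* and WT gave 0.88 (SE 0.17, adjusted *P* = 0.000756). On NGM *dgat-2* rose by 1.25 in the double mutant relative to *pgph-2 o/e* (SE 0.12, 2.37-fold, adjusted *P* = 1.21e-05) and by 0.66 in *hlh-30* relative to WT (SE 0.14, adjusted *P* = 0.0168, and 0.0542 without WT replicate 2), and fell by 0.50 in *pgph-2 o/e* relative to WT (SE 0.13, adjusted *P* = 0.0408). This fall was kept only in the fits without *pgph-2 o/e* replicate 1 and without WT replicate 1 among the 8 that left out 1 library, where the adjusted *P* reached 0.126. On glucose it rose relative to WT by 0.39 in *pgph-2 o/e* (SE 0.11, adjusted *P* = 0.0182) and by 0.52 in *hlh-30* (SE 0.11, adjusted *P* = 0.00667). The first was kept in 6 of 8 such fits, but not without *pgph-2 o/e* replicate 4 or without WT replicate 4 on glucose (adjusted *P* up to 0.055).

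**Figure D2:**
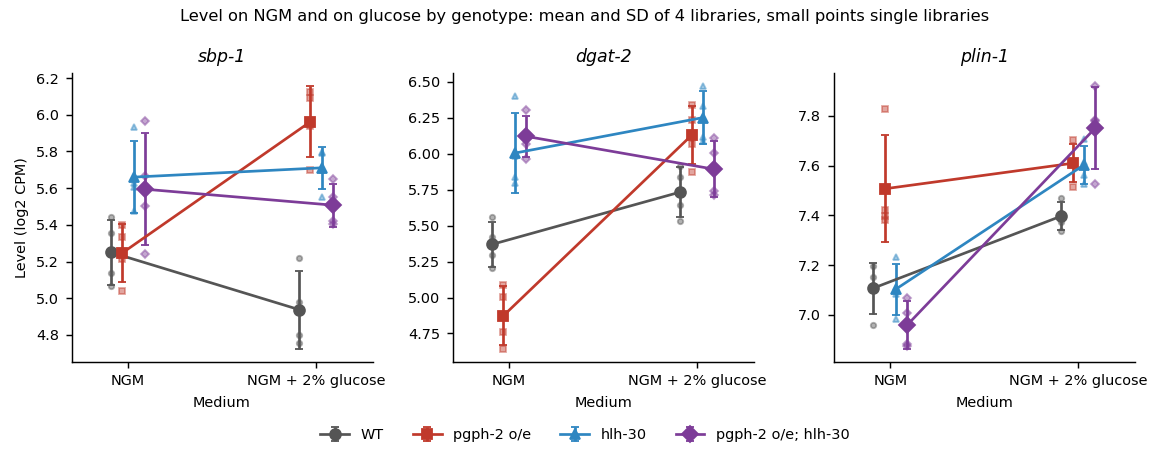
Level in log2 CPM (y axis) of *sbp-1*, *dgat-2* and *plin-1* on NGM and on NGM with 2% glucose (x axis), with the mean and SD of 4 libraries for each genotype and single libraries as small points. The line of *pgph-2 o/e* rises for *sbp-1* and *dgat-2*, by 0.72 and 1.26 in the edgeR fit, and that of the double mutant for *plin-1*, by 0.80.

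The sperm markers were highest in *pgph-2 o/e* on NGM, where *dgat-2* was lowest, and fell there with glucose, where *dgat-2* rose. Over the 32 libraries, Pearson's r between log2 CPM of *dgat-2* and the mean of the sperm genes was -0.76, given as a description. With glucose in WT the median log2 change of the sperm genes was 0.63 and the change of *dgat-2* 0.37. There 0 of the 35 sperm genes tested were called, and *dgat-2* was not called either. With the sperm term in the fit of 32 libraries, *dgat-2* changed by 1.04 in the double mutant relative to *pgph-2 o/e* on NGM (adjusted *P* = 1.92e-05) and by 0.95 with glucose in *pgph-2 o/e* (adjusted *P* = 0.0045), both still called. The fall in *pgph-2 o/e* relative to WT on NGM (-0.40, adjusted *P* = 0.0492) and the rise in *hlh-30* relative to WT on NGM (0.50, adjusted *P* = 0.0197) were kept as well. The 4 other calls of *dgat-2* were lost. The rises relative to WT on glucose were 0.13 in *pgph-2 o/e* (adjusted *P* = 0.749) and 0.14 in *hlh-30* (adjusted *P* = 0.843). The excess of the glucose response over that of WT was then 0.53 (adjusted *P* = 0.303). The difference of the transgene's effects with *hlh-30* on glucose went from -0.75 to -0.26 (adjusted *P* = 0.764).

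The second gene of triacylglycerol assembly, *lpin-1*, was lowest in the double mutant on NGM. *lpin-1* (H37A05.1, chromosome V, 13650286 to 13654129) encodes lipin, the phosphatidate phosphatase that makes diacylglycerol. The double mutant had 207, 204, 229 and 222 CPM on NGM, below every other library, and 299, 258, 293 and 316 CPM on glucose. On NGM the *hlh-30* libraries had 265, 263, 263 and 273 CPM, the *pgph-2 o/e* libraries 262, 312, 276 and 262 CPM and the WT libraries 234, 276, 270.1 and 259.6 CPM. *lpin-1* fell by 0.36 relative to *pgph-2 o/e* (SE 0.10, adjusted *P* = 0.00987) and by 0.31 relative to *hlh-30* (SE 0.05, adjusted *P* = 0.00534), and rose on glucose by 0.43 in the double mutant (SE 0.07, adjusted *P* = 0.00209). These 3 calls were kept in all alternative fits, the one with the sperm term included. The rise on glucose in *hlh-30*, by 0.24 (SE 0.06, adjusted *P* = 0.025), and the rise in *pgph-2 o/e* relative to WT on glucose, by 0.23 (SE 0.07, adjusted *P* = 0.0291), were each kept in 3 of 8 fits without 1 library, with adjusted *P* up to 0.0723 and 0.067. The fits that kept them left out *hlh-30* replicate 4 on NGM or replicate 1 or 3 on glucose for the first, and *pgph-2 o/e* replicate 3 or WT replicate 1 or 3 on glucose for the second. Both were 0.20 in the fit with the sperm term, at adjusted *P* of 0.222 and 0.379.

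The carboxylase gene *pod-2* had its lowest levels in WT on glucose. *pod-2* (W09B6.1, chromosome II, 1136801 to 1152705) encodes acetyl-CoA carboxylase, which makes the malonyl-CoA that fatty acids are built from. On glucose it had 764, 438, 664 and 562 CPM for WT, 795, 935, 1073 and 1083 CPM for *pgph-2 o/e*, 902, 1087, 983 and 999 CPM in *hlh-30* and 955, 981, 946 and 1007 CPM in the double mutant. The WT libraries lay below all others on this medium. *pod-2* rose relative to WT by 0.71 in *hlh-30* (SE 0.15, adjusted *P* = 0.00581) and by 0.68 in *pgph-2 o/e* (SE 0.16, adjusted *P* = 0.00628). With the sperm term the values were 0.60 in both, at adjusted *P* of 0.23 and 0.0849.

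On NGM *pod-2* had 584, 815, 856 and 881 CPM for WT, 947, 705, 709.6 and 745 CPM for *pgph-2 o/e*, 981, 1055, 1001 and 1182 CPM in *hlh-30* and 846, 1014, 1000.3 and 1015 CPM in the double mutant. It rose by 0.44 in *hlh-30* relative to WT (SE 0.12, adjusted *P* = 0.0416), where the 4 and 4 libraries did not overlap, but only in 2 of the 8 fits without 1 library was this kept, those without WT replicate 1 or 4 (adjusted *P* up to 0.0946), and it was 0.39 with the sperm term (adjusted *P* = 0.126). *fasn-1* (F32H2.5, chromosome I, 8975384 to 8986522) encodes fatty acid synthase, the next enzyme of the pathway. It was called in 1 comparison, with a fall of 0.37 in the double mutant relative to *hlh-30* on NGM (SE 0.10, adjusted *P* = 0.0378), kept in 2 of 8 such fits, those without replicate 4 of either genotype (adjusted *P* up to 0.123). The libraries had 559, 554, 677 and 707 CPM in the double mutant and 834, 857, 867 and 662 CPM in *hlh-30*, overlapping through *hlh-30* replicate 4 alone. On glucose the *hlh-30* libraries had 425, 613, 693 and 497 CPM, a log2 change of -0.51 from NGM that did not pass (SE 0.15, adjusted *P* = 0.0515). It passed with DESeq2 (adjusted *P* = 0.00679) and in 5 of the other 6 alternative fits, the exception being the fit with the sperm term (-0.31, adjusted *P* = 0.221).

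The regulator gene *sbp-1* was highest in *pgph-2 o/e* on glucose and lowest in WT on glucose. *sbp-1* (Y47D3B.7, chromosome III, 11428341 to 11442566) encodes the worm SREBP, a membrane-bound transcription factor that is cleaved to turn on genes of fatty acid synthesis and desaturation. On glucose it had 52.0, 69.7, 61.3 and 68.1 CPM in *pgph-2 o/e* and 37.3, 27.8, 31.5 and 27.0 CPM in WT. The *hlh-30* libraries had 52.0, 55.3, 46.998 and 55.6 CPM, in part within the range of *pgph-2 o/e*, and the double mutant 46.95, 42.9, 50.2 and 42.3 CPM, between *pgph-2 o/e* and WT. *sbp-1* rose relative to WT by 1.02 in *pgph-2 o/e* (SE 0.12, 2.03-fold, adjusted *P* = 0.000197) and by 0.76 in *hlh-30* (SE 0.11, adjusted *P* = 0.00142), and fell by 0.49 in the double mutant relative to *pgph-2 o/e* (SE 0.10, adjusted *P* = 0.00876).

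On NGM *sbp-1* had 37.1, 32.9, 42.2 and 40.4 CPM in *pgph-2 o/e* and 33.5, 35.2, 40.9 and 43.5 CPM in WT, which overlapped, with a log2 difference of -0.01 (SE 0.12, adjusted *P* = 0.972). The *hlh-30* libraries had 49.4, 48.7, 44.5 and 61.1 CPM, above WT (0.42, SE 0.12, adjusted *P* = 0.0429), a call kept in 2 of the 8 fits without 1 library, those without *hlh-30* replicate 3 or WT replicate 4 (adjusted *P* up to 0.115). The double mutant had 37.8, 50.8, 45.3 and 62.6 CPM. With glucose *sbp-1* rose by 0.72 in *pgph-2 o/e* (SE 0.12, adjusted *P* = 0.000739), and the change in WT was -0.30 (SE 0.12, adjusted *P* = 0.168). The responses differed by 1.01 (SE 0.17, adjusted *P* = 0.000245). On glucose the effect of the transgene was lower by 1.22 without *hlh-30* than with it (SE 0.15, adjusted *P* = 8.6e-05).

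As for *dgat-2*, the sperm markers lay at opposite ends, at 214 to 596 CPM in *pgph-2 o/e* on glucose and 1604 to 3404 CPM in WT on glucose. With the sperm term the rise of *sbp-1* over WT on glucose was 0.76 (adjusted *P* = 0.0135), while the rise with glucose in *pgph-2 o/e* was 0.42 (adjusted *P* = 0.268) and the differences of effects were 0.67 (adjusted *P* = 0.173) and -0.74 (adjusted *P* = 0.342). The rises of *sbp-1* in *hlh-30* relative to WT became 0.40 on glucose (adjusted *P* = 0.436) and 0.27 on NGM (adjusted *P* = 0.268). The fall in the double mutant relative to *pgph-2 o/e* on glucose became -0.34 (adjusted *P* = 0.129). Of the 7 calls of *sbp-1*, only the rise of *pgph-2 o/e* over WT on glucose was left. A gene on the other strand, Y47D3B.6, shares exon bases with *sbp-1*, and since no use of strand is stated for the counting, reads of the 2 genes may have been mixed. The CPM values of Y47D3B.6 are scaled to library totals without TMM factors, so they are not on the same scale as those of *sbp-1*. On that scale Y47D3B.6 had 61.0 to 76.7 CPM in *pgph-2 o/e* on NGM and 114 to 207 CPM on glucose. In WT on glucose, where *sbp-1* was lowest, it had 60.9 to 164 CPM.

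*mdt-15* (R12B2.5, chromosome III, 5830150 to 5833745) encodes a Mediator subunit that works with SBP-1 and NHR-49. Its 32 libraries ranged from 119.01 to 197 CPM. Its lowest group was WT on glucose, at 146, 119.01, 144 and 126 CPM, and its highest the double mutant on glucose, at 170.4, 188, 187 and 197 CPM. It rose by 0.31 in *pgph-2 o/e* relative to WT on glucose (SE 0.07, adjusted *P* = 0.00771) and by 0.31 in the double mutant relative to *pgph-2 o/e* on NGM (SE 0.09, adjusted *P* = 0.0136). The rise of 0.24 in *hlh-30* relative to WT on glucose (SE 0.08, adjusted *P* = 0.0454) was kept in 3 of 8 fits without 1 library, those without *hlh-30* replicate 3 or WT replicate 1 or 3 (adjusted *P* up to 0.132), was not called by DESeq2 (0.21, adjusted *P* = 0.0904), and was -0.14 (adjusted *P* = 0.682) with the sperm term. In the sperm-term fit the first 2 values were 0.037 (adjusted *P* = 0.892) and 0.10 (adjusted *P* = 0.433), so all 3 calls of *mdt-15* were lost there. Exons of *mdt-15* share bases with 2 other genes in the WBcel235 annotation, and those of *dgat-2* and *pod-2* with 1 each, so some of their reads may belong to those genes.

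Over the 10 genes, the counts of calls are read against the share of all genes called in the same comparison. For *pgph-2 o/e* relative to WT on NGM 1 of the 10 was called (*dgat-2*, lower), beside 6.9% of all genes tested. On glucose 7 were called, 6 higher and 1 lower, where 41.5% of all genes were called, and the median log2 fold change was 0.22 over the 10 and 0.02 over all genes. For *hlh-30* relative to WT on NGM 3 genes rose and 2 fell, beside 15.2% of all genes, and on glucose 5 rose and 2 fell, beside 45.1%. Relative to *pgph-2 o/e*, the double mutant had 2 higher and 3 lower genes on NGM, beside 42.4% of all genes, and 2 lower genes on glucose (*atgl-1* and *sbp-1*), beside 13.2%. Relative to *hlh-30* it had 2 lower genes on NGM (*fasn-1* and *lpin-1*), beside 11.6%, and 0 on glucose, beside 4.26% of all genes. DESeq2 called 1 of the 10 in that last comparison, and edgeR gave an unadjusted *P* under 0.05 for 4 of them.

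With glucose 1 gene rose in WT (*plin-1*), beside 3.61% of all genes, and 2 rose in *pgph-2 o/e* (*dgat-2* and *sbp-1*), beside 38.8%. In *hlh-30* and in the double mutant the same 2 genes rose, *plin-1* and *lpin-1*, beside 13% and 11.2% of all genes. The glucose response of *pgph-2 o/e* differed from that of WT for 4 genes (*sbp-1*, *dgat-2*, *pod-2* and *lid-1*), beside 33.8% of all genes. The effect of the transgene differed with *hlh-30* for 1 gene on NGM (*plin-1*), beside 3.95%, and for 4 on glucose (*sbp-1*, *dgat-2*, *pod-2* and *lpin-1*), beside 38.5%. For *pod-2* these differences were 0.68 with glucose (SE 0.23, adjusted *P* = 0.0287) and -0.70 with *hlh-30* on glucose (SE 0.18, adjusted *P* = 0.00691). With the sperm term the 8 called differences that involve glucose lost their calls (adjusted *P* from 0.173 to 0.764), and that of *plin-1* on NGM was kept (-0.55, adjusted *P* = 0.00796). Of all genes, that term left 0.567% called for the difference with glucose and 0.00609% for that with *hlh-30* on glucose. On NGM it gave 6.23%. The loss of calls was thus not particular to these genes. The comparisons share groups, WT on glucose among them, so they are not independent of each other.

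**Figure D3:**
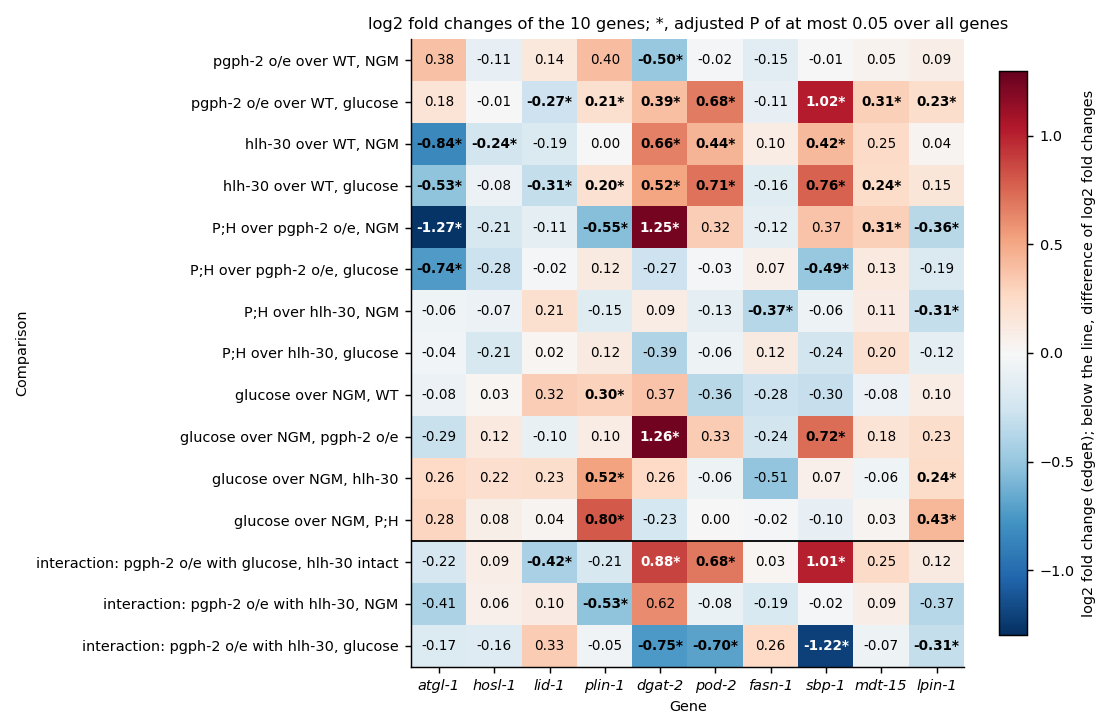
log2 fold changes (color and number) of the 10 genes (columns) in 12 comparisons between 2 groups and, below the line, 3 differences of fold changes between genotypes or media (rows; P;H, double mutant); bold with an asterisk marks adjusted *P* of at most 0.05 over all genes in edgeR. The largest are the fall of *atgl-1* by 1.27 and the rises of *dgat-2* by 1.25 and 1.26.

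Of the calls of single genes, 45 in all, 27 were kept in every fit that left out 1 library and 12 in every alternative fit, where no limit on the fold change applied. These 12 were the changes of *atgl-1*, *dgat-2*, *plin-1* and *lpin-1* between the double mutant and *pgph-2 o/e* on NGM, of *atgl-1* between the same genotypes on glucose and between *hlh-30* and WT on NGM, of *sbp-1* relative to WT in *pgph-2 o/e* on glucose, of *lpin-1* between the double mutant and *hlh-30* on NGM, and those with glucose of *dgat-2* in *pgph-2 o/e*, of *plin-1* in *hlh-30* and the double mutant and of *lpin-1* in the double mutant. The sperm term left 17 of the 45 calls. It lowered the share of all genes called for *pgph-2 o/e* relative to WT on glucose from 41.5% to 3.21%. Since the sperm level itself differed between groups, the term also takes up part of any group difference that runs along with it.

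**Figure D4:**
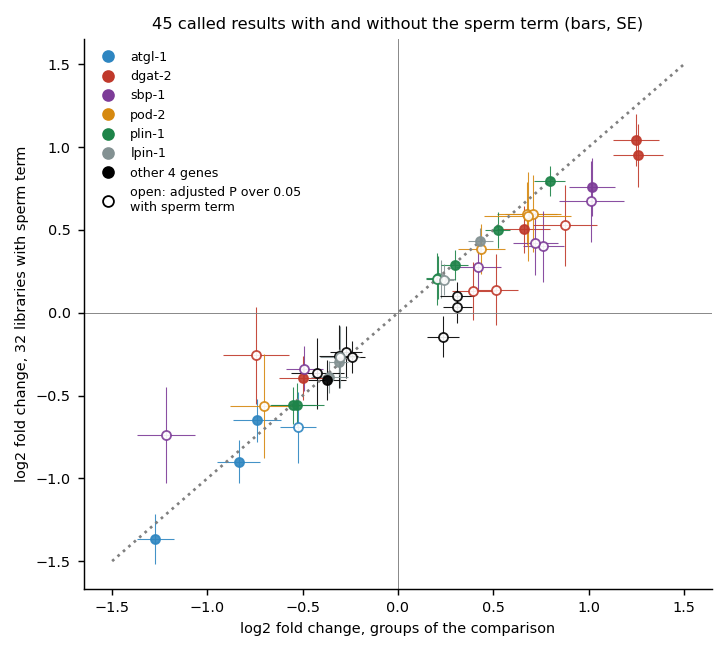
Each point is 1 of the 45 called results, with its log2 fold change in the fit of the groups compared (x axis) and in a fit of all 32 libraries with the mean log2 CPM of 36 sperm genes as a term (y axis); bars are SE, open points were no longer called, and the dotted line marks equal values. The points of *atgl-1*, *plin-1* and *lpin-1* lie near the line, those of *dgat-2* and *sbp-1* closer to 0 than the line.

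Other genes of the same pathways were counted from 4 lists with 37 genes in all, and their counts are read against the share of all genes in the same way. In *pgph-2 o/e* relative to WT on glucose 14 rose and 6 fell (54.1%, beside 41.5% of all genes), and with glucose in *pgph-2 o/e* 11 rose and 5 fell (43.2%, beside 38.8%). With the sperm term 1 gene was called in the first (*nhr-80*) and 3 in the second (*acl-6*, *cept-1* and *pcyt-1*), beside 3.21% and 2.38% of all genes. These 4 are named for being the ones left. In *hlh-30* relative to WT on glucose 9 rose and 7 fell (43.2%, beside 45.1%), and the sperm term left 1, *hlh-30* itself. Of 5 genes that supply building blocks of fatty acids, 1 rose and 2 fell in *pgph-2 o/e* relative to WT on glucose (60%, beside 41.5% of all genes). Of 11 genes of glycerolipid assembly, 4 rose and 1 fell in that comparison (45.5%), 5 rose and 2 fell with glucose in *pgph-2 o/e* (63.6%), and 3 fell in the double mutant relative to *hlh-30* on either medium (27.3%, beside 11.6% of all genes on NGM and 4.26% on glucose). The last included on glucose *cept-1* (-0.53, SE 0.10, adjusted *P* = 0.0232) and *pcyt-1* (-0.51, SE 0.09, adjusted *P* = 0.0158), which encode a choline or ethanolamine phosphotransferase and the rate-limiting enzyme of phosphatidylcholine synthesis. *cept-1* rose by 0.82 with glucose in *pgph-2 o/e* (SE 0.08, adjusted *P* = 3.03e-05), and *acl-1*, an acyltransferase of the acl family, fell by 0.56 in the double mutant relative to *hlh-30* on NGM (SE 0.10, adjusted *P* = 0.00687). The acyltransferase gene *dgtr-1* fell by 0.84 in the double mutant relative to *pgph-2 o/e* on NGM (SE 0.19, adjusted *P* = 0.0045), where *dgat-2* rose, and by 0.76 with glucose in *pgph-2 o/e* (SE 0.20, adjusted *P* = 0.0109), where *dgat-2* rose as well. The 2 falls of *dgtr-1* were not called with the sperm term (-0.57, adjusted *P* = 0.107, and -0.33, adjusted *P* = 0.667).

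Of 6 other lipid droplet genes, 1 fell in *hlh-30* relative to WT on NGM (16.7%, beside 15.2% of all genes) and 2 fell on glucose (33.3%, beside 45.1%). On both media *abhd-5.2*, a second CGI-58 homolog beside *lid-1*, was among them, with falls of 0.90 (SE 0.15, adjusted *P* = 0.00604) and 0.65 (SE 0.10, adjusted *P* = 0.0022), the latter at an adjusted *P* of 0.522 with the sperm term. The fatty acid transport protein gene *acs-22* rose in the double mutant relative to *hlh-30*, by 0.52 on NGM (SE 0.09, adjusted *P* = 0.0059) and by 0.39 on glucose (SE 0.09, adjusted *P* = 0.0428). *mboa-2*, which encodes the homolog of DGAT1, rose with glucose by 0.38 in WT (SE 0.08, adjusted *P* = 0.0283) and by 0.37 in *hlh-30* (SE 0.08, adjusted *P* = 0.0214), the latter not called with the sperm term (0.26, adjusted *P* = 0.233).

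The 15 regulators of fat metabolism include *hlh-30* itself, whose level the genotype sets, so counts are given for the other 14. Of these, 8 rose and 2 fell in *pgph-2 o/e* relative to WT on glucose (71.4%, beside 41.5% of all genes). Only 1 was called with the sperm term. In *hlh-30* relative to WT on glucose 4 rose and 2 fell (42.9%, beside 45.1%). With glucose 5 rose in the double mutant (35.7%, beside 11.2%), and the sperm term gave 5 there too. *klf-3* and *klf-1*, which encode Krüppel-like factors, rose by 0.66 (SE 0.22, adjusted *P* = 0.0329) and 0.60 (SE 0.10, adjusted *P* = 0.000868) in *pgph-2 o/e* relative to WT on glucose, and *nhr-13*, a nuclear hormone receptor gene, rose by 1.15 with glucose in *pgph-2 o/e* (SE 0.16, adjusted *P* = 0.000279). The sperm term gave 0.46, 0.29 and 0.78, at adjusted *P* of 0.318, 0.42 and 0.0522. *aak-1*, a catalytic subunit of AMPK, fell by 0.62 in *pgph-2 o/e* (SE 0.12, adjusted *P* = 0.00198) and by 0.74 in *hlh-30* (SE 0.11, adjusted *P* = 0.00172) relative to WT on glucose, where the sperm term gave -0.20 (adjusted *P* = 0.443) and -0.17 (adjusted *P* = 0.705). *hlh-11*, whose product is known to repress *atgl-1*, rose by 0.78 in *hlh-30* (SE 0.11, adjusted *P* = 0.00165) and by 0.52 in *pgph-2 o/e* (SE 0.11, adjusted *P* = 0.00362) relative to WT on glucose. *atgl-1* fell in the first and had a log2 difference of 0.18 (adjusted *P* = 0.272) in the second. In *hlh-30* on NGM, where *atgl-1* fell, *hlh-11* was not called (0.25, adjusted *P* = 0.224). In the double mutant relative to *pgph-2 o/e*, where *atgl-1* also fell, *hlh-11* rose on NGM (0.42, SE 0.10, adjusted *P* = 0.00629). It rose there on glucose as well (0.30, SE 0.08, adjusted *P* = 0.0281). The part of *hlh-11* in the level of *atgl-1* was not tested. Neither rise of *hlh-11* relative to WT on glucose was called with the sperm term (adjusted *P* of 0.441 and 0.521). Its rise in the double mutant on NGM was not called with that term either. There 0 of the 14 regulators were called higher, where 20.9% of all genes were called. *mxl-3*, whose product opposes HLH-30 at lysosomal lipase genes, fell in the double mutant on NGM, by 0.69 relative to *pgph-2 o/e* (SE 0.09, adjusted *P* = 0.000106) and by 0.75 relative to *hlh-30* (SE 0.06, adjusted *P* = 0.000213), and rose there by 0.84 with glucose (SE 0.07, adjusted *P* = 3.32e-05). For *pgph-2 o/e* relative to WT on NGM, edgeR called 0 genes of the 4 lists, with 6 of their 37 genes at an unadjusted *P* under 0.05, and DESeq2 called 1 (*dgtr-1*). The bar plot of the 4 lists gives the counts for the other comparisons.

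**Figure D5:**
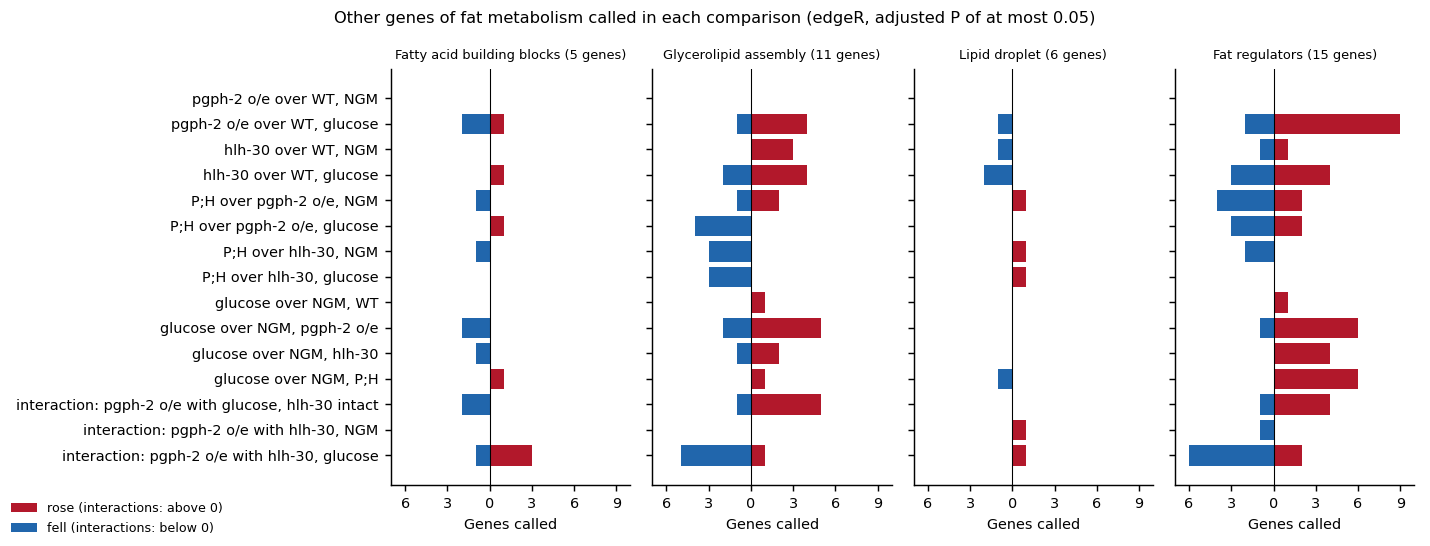
Number of genes called higher (red, to the right of 0) and lower (blue, to the left) in each comparison (y axis; P;H, double mutant) for 4 lists of other genes of fat metabolism, with edgeR at an adjusted *P* of at most 0.05; in the 3 lowest rows the colors give the sign of a difference of fold changes. The regulators, which include the mutated gene *hlh-30*, have the longest bar, with 9 of 15 genes higher in *pgph-2 o/e* than in WT on glucose.

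The genes whose log2 CPM was most like that of *atgl-1* over the 32 libraries, among 10398 genes, were F26A3.4 (Pearson's r 0.92), *lgg-2* (0.92) and *atg-18* (0.91). The last 2 encode an ATG8 homolog and a WIPI homolog of the autophagy machinery. For *dgat-2* they were *cdr-4* (0.88), *ampd-1* (0.87) and *fdr-1* (0.87), and for *sbp-1* T04F8.7 (0.91), H43E16.1 (0.90) and *ddx-17* (0.90). These values describe libraries that share 8 groups and their tissue content, and no test was made of them.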

How the data were processed

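The authors aligned cleaned paired-end reads with Hisat2 and counted them per gene with featureCounts (1.5.0-p3). The deposited values are raw counts of 46589 genes, not normalized, with a gene length, and the submitters' processing notes name the WBcel235 genome. Gene positions are printed as deposited, and some differ by up to 2253 bases from the WBcel235 annotation used here. RefSeq names were matched to 45305 gene IDs, and exon sharing was read from the WBcel235 annotation. Whether strand was used in counting is not given in the sources used here. Reads of rRNA genes took 5.11% to 8.03% of a library.

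Samples were grouped by genotype and medium as the labels give them. For each of 12 comparisons between 2 groups and 3 differences of such effects, edgeR 4.0.16 (R 4.3.3; TMM scaling, filterByExpr with a minimum count of 10, quasi-likelihood F test) was fitted to the counts of only the groups concerned, with Benjamini-Hochberg adjustment over all genes tested. The study itself used DESeq2, also with a limit of 1 on the absolute log2 fold change, and DESeq2 1.42.0 was run as an alternative. The standard error is the absolute log2 fold change divided by the square root of the F statistic. CPM used TMM factors over the 32 libraries, FPKM the deposited gene lengths. Counting precision follows from 276 or more counts for each member in each library. The test was also run on simulated data, whose results are not given here.

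Alternatives were DESeq2, its size factors in edgeR, no filter, at least 10 counts in every library, a replicate block, all 32 libraries in 1 fit without and with the mean log2 CPM of 36 sperm genes as a term, the limit on the fold change, and leaving out each library. All 10 members were to be named, with at most 3 other called genes of the 4 lists per comparison, largest change first, and the 3 genes most like each of the 3 members with the widest spread. The members, the gene lists and the sperm term were chosen with earlier results of these data known. The sperm term for the 4 lists, the regulators without *hlh-30* and the values of *hlh-11* in the double mutant were added after seeing the data. Body wall muscle markers summed per library to 6980 to 8997 CPM in *hlh-30* and the double mutant. In WT and *pgph-2 o/e* they summed to 9041 to 16262 CPM, without overlap. Neuron markers summed to 236 to 349 CPM per library, and the other marker lists are given with the levels. Of all genes, 27096 had a count in any library.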

Additional observations from a re-analysis of the deposited data

Results flagged for a closer look

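In 8 of the 80 sets of 4 libraries (10 genes in 8 groups), 1 library stood apart from the other 3 by a gap past Dixon's critical value for 4 samples at 95%, where chance alone gives about 1 in 20. Of these, 3 concern replicate 1 of *pgph-2 o/e* on NGM, with 227 CPM for *plin-1* (others 167 to 171), 947 CPM for *pod-2* (others 705 to 745) and 134 CPM for *mdt-15* (others 151 to 152.01). The same library had the highest sums of all 32 for the intestinal (14854 CPM), body wall muscle (16262 CPM), sperm (4204 CPM) and oocyte markers (1282 CPM). Before TMM scaling it had 3964 counts for *plin-1*, 16514 for *pod-2* and 2335 for *mdt-15*, of 22335392. Replicate 2 of the group had 3524, 14516 and 3123 counts, of 19772413. Replicate 3 had 3736, 15910 and 3408 counts, of 21739822, and replicate 4 had 2982, 13177 and 2666, of 18253710. Relative to these totals, replicate 1 lay close to the others for *plin-1* and *pod-2* and below them for *mdt-15*. The gaps of *plin-1* and *pod-2* thus rest on the TMM factor of replicate 1. Dixon's rule was not applied to unscaled values. Replicate 4 of this group had 649 CPM for *fasn-1* (others 691 to 695).

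The other 4 were *atgl-1* in *hlh-30* on glucose, with 37.7 CPM in replicate 3 (others 44.7 to 46.1), and in WT on glucose, with 52.7 CPM in replicate 2 (others 64.6 to 67.0), *pod-2* in the double mutant on NGM, with 846 CPM in replicate 1 (others 1000.3 to 1015), and *fasn-1* in *hlh-30* on NGM, with 662 CPM in replicate 4 (others 834 to 867).

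Effects under the same contrast differed between genotypes or media in 9 cases, by edgeR's test of the difference. Between the glucose responses of *pgph-2 o/e* and WT the log2 differences were 1.01 for *sbp-1*, 0.88 for *dgat-2*, 0.68 for *pod-2* and -0.42 for *lid-1*. The transgene's effects with and without *hlh-30* differed on NGM by -0.53 for *plin-1*, and on glucose by -1.22 for *sbp-1*, -0.75 for *dgat-2*, -0.70 for *pod-2* and -0.31 for *lpin-1*. On glucose the sperm markers went from 1604 to 3404 CPM in WT to 214 to 596 CPM in *pgph-2 o/e*. Without *hlh-30* they went from 76.3 to 702 CPM to 728 to 1190 CPM in the double mutant. That difference has the opposite sign to those of the 4 genes. It comes from the same libraries for all 4, so it does not count anew for each gene, and its part in them was not tested.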

How the results depend on the processing

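Of 45 calls of single genes, DESeq2 kept 43, its size factors in edgeR 44, at least 10 counts in every library 43, no filter 37, and 1 fit of all 32 libraries 42, while the sperm term kept 17. A replicate block kept 35. The replicate numbers were not used as pairs, since in 0 of 12 comparisons did every same-numbered pair correlate above 0.1 (10 of 48 pairs did, r from -0.32 to 0.42), and 13 of 48 libraries matched their own number best. With 4 libraries per group this rule cannot exclude pairing in a single comparison. For the double mutant relative to *hlh-30* on glucose r was 0.085 to 0.32, and 3 libraries matched their own number best. With the block the number of members called was 0 in place of 1 for *pgph-2 o/e* relative to WT on NGM and for glucose in WT, 1 in place of 2 for the double mutant relative to *hlh-30* on NGM, and 4 in place of 2 for glucose in *hlh-30*. In that order the block called 5.95%, 0.733%, 5.72% and 21.9% of all genes.

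In other settings the number of members called moved as follows. For *pgph-2 o/e* relative to WT on NGM it was 2 with DESeq2 and 3 in the fits of 32 libraries with and without the sperm term (1 in the report). These 3 settings called 10.3%, 12.1% and 15% of all genes. Glucose in WT gave 2 with DESeq2 and with the sperm term and 0 without a filter (1), and glucose in *pgph-2 o/e* 4 with DESeq2 and with 32 libraries and 1 with the sperm term (2). Of all genes, these settings called 9.43%, 8% and 2.93% in WT and 35.9%, 45.8% and 2.38% in *pgph-2 o/e*. For the double mutant relative to *hlh-30* it was 1 on NGM with 32 libraries (2) and 1 on glucose with DESeq2 or the sperm term (0). The shares of all genes there were 7.94% on NGM, and 9.07% and 3.28% on glucose. The difference of the transgene's effects on NGM gave 2 with DESeq2, its size factors, 32 libraries and the sperm term, and 0 without a filter (1). In that order 6.89%, 3.69%, 6.29%, 6.23% and 2.09% of all genes were called. The sperm term also gave 1 on glucose (7) for *pgph-2 o/e* and, for *hlh-30* relative to WT, 2 on NGM (5) and 0 on glucose (7), 1 for glucose in *hlh-30* (2), and 0 for both differences of effects that involve glucose (4 each). In that order it called 3.21%, 8.47%, 1.21% and 6.92% of all genes. For the differences it called 0.567% with glucose and 0.00609% with *hlh-30* on glucose. Where the log2 fold change also had to reach 1 in size, 2 members were left for the double mutant relative to *pgph-2 o/e* on NGM, 1 each for *pgph-2 o/e* relative to WT on glucose, glucose in *pgph-2 o/e* and both differences on glucose, and 0 elsewhere. In the first of these, 1152 higher and 1621 lower genes of all 15199 tested were left. In the next 2 there were 825 and 2083 of 15179, and 999 and 1968 of 15022. The differences left 992 and 2239 of 15816 with glucose, and 2319 and 929 of 15908 with *hlh-30* on glucose.

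Leaving out 1 library gave 0 to 2 members for *pgph-2 o/e* relative to WT on NGM and 4 to 7 on glucose, 1 to 4 for *hlh-30* relative to WT on NGM, 1 to 4 and 0 to 2 for the double mutant relative to *hlh-30* on NGM and glucose, and 0 to 2, 2 to 6 and 1 to 4 for glucose in WT, *pgph-2 o/e* and *hlh-30*. For the differences of effects it gave 2 to 4 with glucose, 0 to 3 with *hlh-30* on NGM and 3 to 4 on glucose. The number of all genes called moved too. It was 443 to 1759 for *pgph-2 o/e* relative to WT on NGM and 102 to 3256 for the double mutant relative to *hlh-30* on glucose. For the difference with *hlh-30* on NGM it was 305 to 1253. Of the called differences, *sbp-1* and *dgat-2* were kept in all such fits. *lid-1* was kept in 9 of 16, but not without replicate 2 or 4 of *pgph-2 o/e* or 2, 3 or 4 of WT on NGM or replicate 3 of either on glucose (adjusted *P* up to 0.0607), and *pod-2* with glucose in 6 of 16, those without replicate 1 of *pgph-2 o/e* or WT on NGM, replicate 1 or 2 of *pgph-2 o/e* on glucose or replicate 1 or 3 of WT on glucose (up to 0.0624). *plin-1* on NGM was kept without replicate 2 or 4 of *hlh-30*, 1, 2 or 3 of *pgph-2 o/e*, 4 of the double mutant or 2 of WT, and *lpin-1* on glucose was lost without replicate 2 or 4 of *hlh-30* or replicate 2 of *pgph-2 o/e* or of the double mutant (up to 0.0562).

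Signs turned for *mdt-15* in *hlh-30* relative to WT on glucose (-0.14 with the sperm term) and for 3 values near 0 that were not called: *sbp-1* in *pgph-2 o/e* relative to WT on NGM (0.087 with the sperm term, -0.074 to 0.058 without 1 library), *atgl-1* in the double mutant relative to *hlh-30* on glucose (0.10, and -0.11 to 0.052) and the difference of the transgene's effects on *atgl-1* on glucose (0.041). The cause of these changes was not tested.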
